A study of Mus musculus with 8 samples.

Results

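Nuclear genes that encode subunits of the oxidative phosphorylation complexes, together with the complex I assembly factors whose symbols begin with Ndufaf, were followed in female mouse embryonic fibroblasts (MEFs) by allele-specific RNA-seq. The members were chosen by symbol (Nduf, Sdha to Sdhd, Uqcr, Cyc1, Cox4 to Cox8 and Atp5), as autosomal protein-coding genes with at least 10 allelic reads in at least 1 pool. Of 46078 gene IDs in the counts, 91 autosomal protein-coding genes carried such a symbol and 74 of these reached the read minimum. The 74 members comprised 31 of 36 genes of complex I, 4 of 4 of complex II, 6 of 9 of complex III, 9 of 17 of complex IV, 17 of 17 of complex V and 7 of 8 Ndufaf assembly factors. Reads were those that cover a position at which the genomes of 129S1/SvImJ (129) and CAST/EiJ (CAST) differ, so the level of a gene depends on the number of such positions in its transcript as well as on its expression.

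All cells were hybrid MEFs with the inactive X (Xi) from the 129 parent, given as 129S1/SvImJ x CAST/EiJ in the labels. The study text names the 129 parent of the cells 129Sv4/Jae and takes the strain differences from 129S1/SvImJ. The WT group carried an intact Xist, and the XiΔXist group lacked Xist on the Xi. The other groups, XiΔXist shSCR and XiΔXist shYY1 (here shSCR and shYY1), were XiΔXist MEFs transduced with lentiviral vectors that carry a scrambled hairpin or hairpins against Yy1 and then selected in puromycin. The study describes its MEF lines as clonal, and it used 2 YY1 hairpins. Each group had 2 samples, but the authors pooled them before alignment, so each group is represented by 1 pool of 129 reads and CAST reads. No spread between replicates could be computed, no p-value is given, and all intervals below are 95% intervals that cover counting error only.

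The respiratory chain passes electrons from NADH (complex I, NADH dehydrogenase) or succinate (complex II, succinate dehydrogenase) through ubiquinone to complex III (the cytochrome bc1 complex), cytochrome c and complex IV (cytochrome c oxidase). The protons pumped along the way drive complex V, the ATP synthase. Most subunits are encoded in the nucleus and imported into mitochondria, while a small set is encoded by mitochondrial DNA. YY1 is a zinc-finger factor that binds many promoters with a motif around the letters ATGGC, and with the coactivator PGC-1α it has been tied to the transcription of nuclear mitochondrial genes. NRF1, GABPA and ESRRA are other factors known for binding promoters of respiratory chain genes.

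The YY1 motif was looked for in the promoters of the members, taken from RefSeq (GRCm38.p6) as the window from 250 bases before to 50 bases after each gene's start. A window was found for 64 of the 74 members. The letters AAGATGGCG, read on either strand, were present in 7 of these 64 members, or 10.9%, against 2.14% of 16457 autosomal protein-coding genes with a window and 3.62% of those with at least 10 allelic reads in a pool. These 7 sites are shown 5′ to 3′ on the strand of the gene, with up to 10 bases on each side and the motif in capitals, because they are the places where a YY1 motif and a member meet.

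Ndufc1, chr3:51408915-51408943 (- strand): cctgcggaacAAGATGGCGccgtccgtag
Ndufs4, chr13:114388045-114388069 (- strand): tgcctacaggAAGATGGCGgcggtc
Ndufs6, chr13:73328433-73328459 (- strand): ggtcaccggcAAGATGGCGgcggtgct
Ndufs7, chr10:80249463-80249491 (+ strand): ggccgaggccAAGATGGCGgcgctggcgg
Atp5j, chr16:84835046-84835074 (- strand): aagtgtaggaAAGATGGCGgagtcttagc
Atp5j2, chr5:145191500-145191528 (- strand): ccaggacttcAAGATGGCGtcactcggtg
Ndufaf8, chr11:120098934-120098962 (+ strand): ggcagggcccAAGATGGCGgcgccctcga

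All 7 sites lay on the strand of the gene, and 6 of them began between 11 and 36 bases downstream of the start, the exception being Atp5j, whose site began 88 bases upstream. In Ndufc1, Ndufs4, Ndufs6, Ndufs7 and Atp5j2 the ATG within the motif was also an annotated start codon, so these letters can be read as coding sequence as well as a motif. The looser form AANATGGCN was present in 16 of 64 members (25%, against 7.43% of all genes with a window and 10.1% of those with 10 reads in a pool). GCATGCGC, for NRF1, was present in 11 members (17.2%, against 3.99% and 6.28%), and CCGGAAG, for GABPA, in 15 (23.4%, against 13.3% and 20.7%, so close to the share among genes with reads). TCAAGGTCA, for ESRRA, was present in 2 members, Atp5g3 and Sdhd (3.13%, against 0.383% and 0.252%). Every match of AAGATGGCG is also a match of AANATGGCN, and a match is no measure of binding.

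Autosomal allelic reads numbered 18745483 (WT), 21342574 (XiΔXist), 1470870 (shSCR) and 1472083 (shYY1), and levels are given as CPM, each count scaled to a fixed total of these reads. The WT and XiΔXist libraries were sequenced with shorter reads than the shSCR and shYY1 libraries, so levels are compared within each of these pairs and set side by side across them. Fibroblast markers were present in all pools, with 10 to 12 of 13 markers at 10 or more reads and a summed level of 5274 to 16518 CPM. The fibroblast markers at 0 were S100a4 in WT, Dcn and Lum in shSCR and Lum in shYY1. Markers of blood, endothelium, epithelium and muscle summed to at most 3.57 CPM a list in any pool, with Ckm, Myod1 and Myog at 0 in all 4 pools. Fewer cells of a type and less RNA per cell cannot be told apart in these bulk pools.

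Yy1, the targeted gene, was represented by 1538 reads (WT), 1697 (XiΔXist), 237 (shSCR) and 92 (shYY1). Its level was thus 82.0 CPM in WT and 79.5 CPM in XiΔXist, and it was lower in shYY1 (62.5 CPM) than in shSCR (161 CPM), a ratio of 0.388 (0.301 to 0.495).

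The members together accounted for 4727 CPM (WT), 5377 CPM (XiΔXist), 3999 CPM (shSCR) and 4259 CPM (shYY1). The median number of reads per member was 327.5 (WT), 283 (XiΔXist), 46 (shSCR) and 59.5 (shYY1), so the knockdown pair resolves only large differences of single genes. In all, 57 of the 74 members had at least 10 reads in all 4 pools. The order of the members by level differed between the pairs of libraries. The most abundant members of WT and XiΔXist were Ndufaf4, a complex I assembly factor (737 and 683 CPM), and Atp5f1, the b subunit of the ATP synthase stalk (598 and 628 CPM), whereas the most abundant in shSCR was Atp5b, the catalytic β subunit (317 CPM). Levels per kb of exon differed between the pairs in both directions. Cox8a was at 28.5 CPM per kb in WT and 343 CPM per kb in shSCR, and Ndufa4 was at 184 CPM per kb in WT and 90.6 CPM per kb in shSCR.

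**Figure D1:**
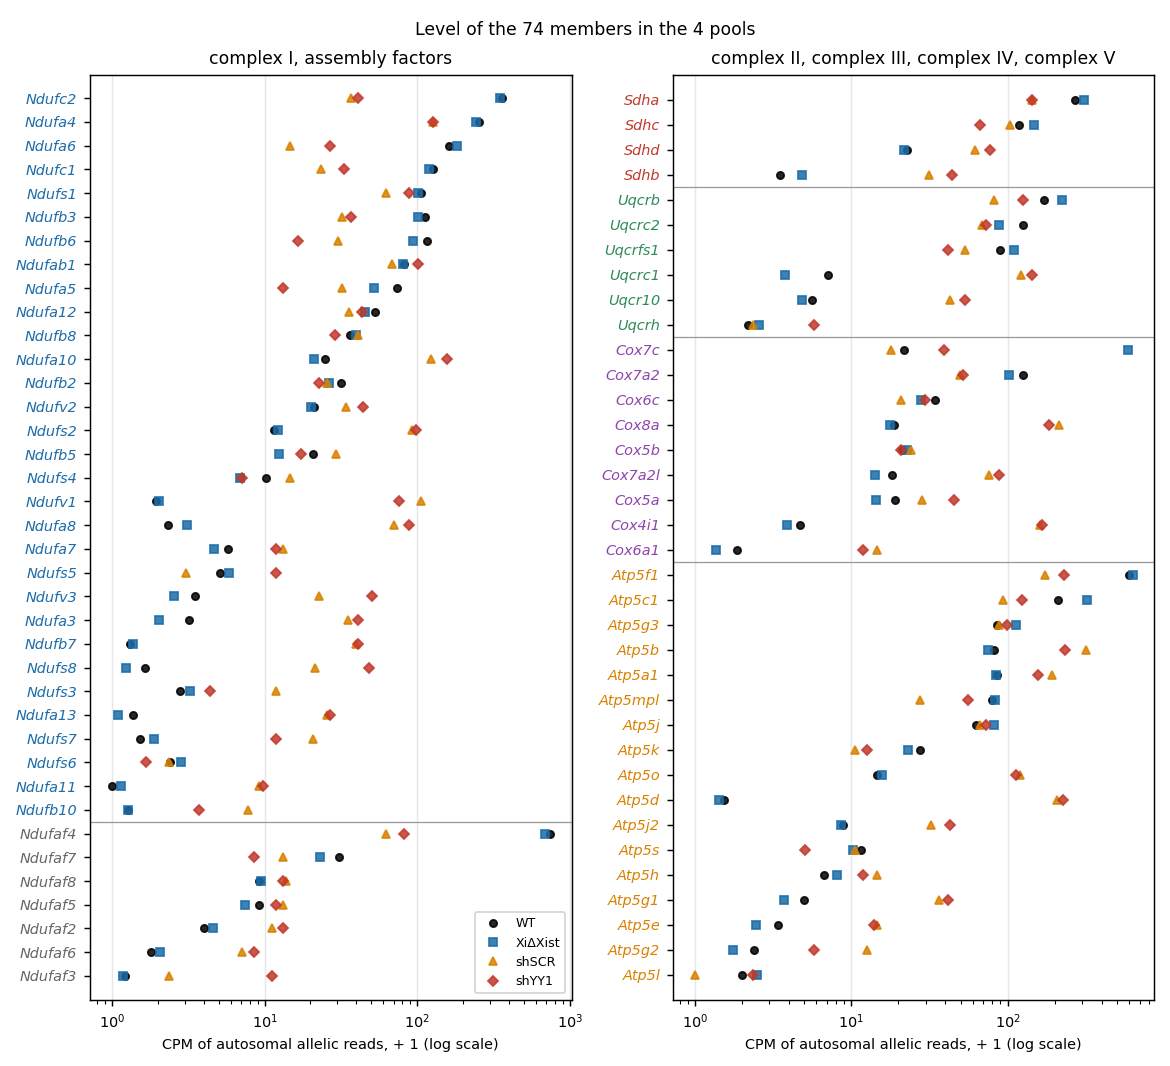
Level of each of the 74 members in the 4 pools, as CPM of autosomal allelic reads plus 1 on a log axis, with members grouped by complex and ordered by total reads. WT and XiΔXist points lie close together for most members, as do shSCR and shYY1 points, while the pairs of pools stand apart, for example for Atp5d (0.422 CPM in XiΔXist and 206 CPM in shSCR) and Ndufaf4 (683 and 61.9 CPM).

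The distance between the pairs was large for many members. Between shSCR and XiΔXist, which are both XiΔXist cells, 25 members were at least 4-fold higher in shSCR and 5 were at least 4-fold lower, on the CPM + 1 scale, where 36.5% and 6.14% of 10985 autosomal protein-coding genes with 10 reads in a pool were. Across the 74 members the log2 ratio of shSCR to XiΔXist had an SD of 2.42, against 2.23 across all autosomal protein-coding genes with 10 reads in a pool. Over the 74 genes this ratio correlated with the GC content of the transcript, with a Spearman's rho of 0.61, as a description of genes that share the same libraries. The part of read length, library or transduction in these differences was not tested. Within the pairs the same correlation with GC was -0.14 over 52 members for shYY1 over shSCR and 0.01 over 62 members for XiΔXist over WT.

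The knockdown pair addressed whether the oxidative phosphorylation genes differ in level when Yy1 is depleted. Of the 74 members, 52 had at least 50 reads in shSCR and shYY1 together. Of these 52, 7 were at least 1.5-fold higher in shYY1 (13.5%), where the same rule called 6.56% of 7451 autosomal protein-coding genes. These 7 were Ndufs8, Ndufv3, Ndufa6, Uqcrb, Cox5a, Cox7c and Atp5mpl, and they belong to complexes I, III, IV and V of the chain. A further 4 members were at least 1.5-fold lower (7.69%, against 6.79% of all genes), namely Ndufa5, Ndufb5, Ndufb6 and Sdhc. All 11 had a counting interval of the ratio that excluded 1. The background was not matched to the members for read depth, and the share called fell with depth. With at least 200 reads in the pair, 1 of 25 members was higher and 1 was lower (all genes 2.46% and 2.60%). Genes with under 100 reads in a pair, here and below, are named after their values were seen.

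As a list the members had ratios above those of all genes. The median log2 ratio of CPM + 1 was 0.20 over the 52 members and -0.02 over all genes tested, and 39 of the 52 members were above 0 (13 below), where 47.5% of all genes were above 0. The medians were alike among the complexes, with 0.20 for complex I (23 genes), 0.16 for complex II (4), 0.23 for complex III (5), 0.13 for complex IV (8) and 0.17 for complex V (11). The spread among members was wide beside this shift, with an SD of 0.50 on the same log2 scale and a range from -1.29 to 1.18. Over all genes the SD was 0.40, without matching for read depth.

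Summed reads gave a smaller difference than the median. The 74 members together had 5882 reads in shSCR and 6270 in shYY1, a ratio of 1.07 (1.03 to 1.1). For complex III the ratio of summed CPM was 1.19 (1.06 to 1.34), and for complex I it was 1.1 (1.03 to 1.17). The intervals for complex II (0.969, 0.853 to 1.1), complex IV (1.05, 0.958 to 1.15) and complex V (1.02, 0.959 to 1.08) included 1. The sum for complex V rests in part on Atp5b, which made up 22.6% of its reads in shSCR. Without Atp5b the ratio of complex V was 1.1, and without Cox8a that of complex IV was 1.16. When all allelic reads, including X-linked and mitochondrial ones, were taken as the library total, the ratio of all members was 1.02. With that total the ratio was 1.05 for complex I and 1.14 for complex III, and no intervals were computed.

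**Figure D2:**
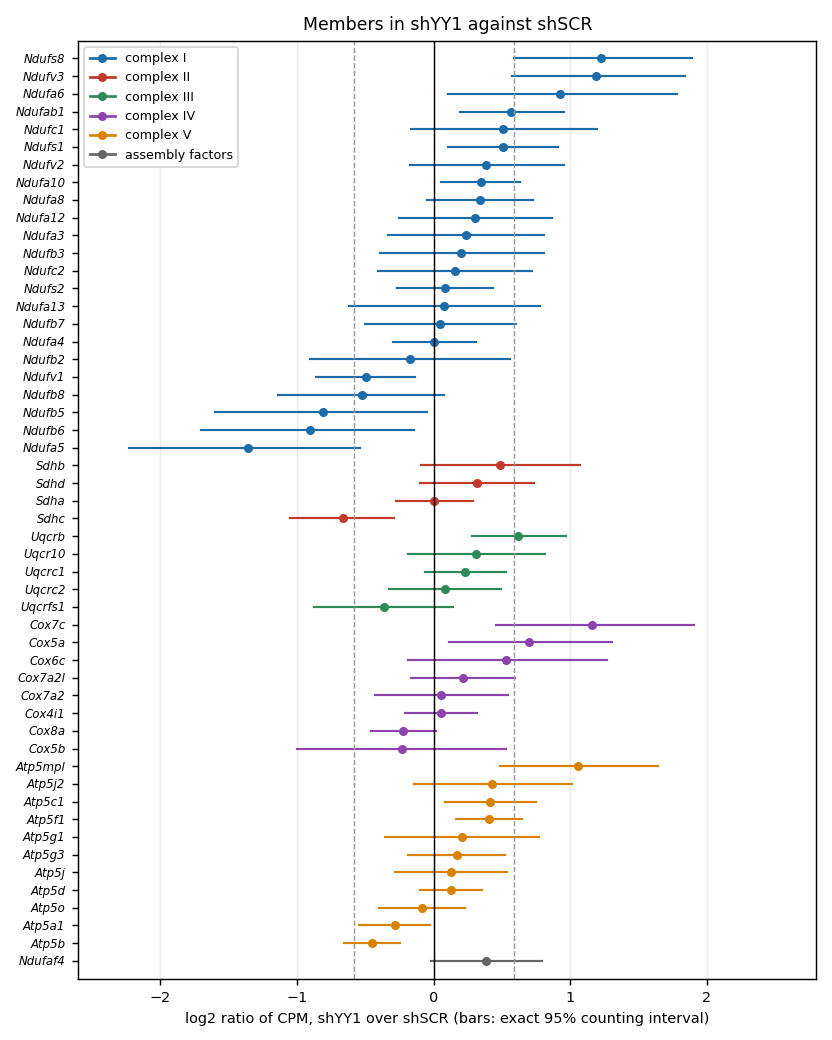
Log2 ratio of CPM in shYY1 over shSCR for the 52 members with at least 50 reads in the pair, by complex, with exact 95% counting intervals as bars and dashed lines at 1.5-fold. More points lie to the right of 0 than to the left, Ndufs8, Ndufv3, Cox7c and Atp5mpl lie farthest to the right, and Ndufa5 lies farthest to the left.

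In complex I the higher members were 1 core and 2 accessory subunits, and the 3 lower members were all accessory subunits. Ndufs8, an iron-sulfur subunit of the arm that leads electrons to ubiquinone, had 12 reads (WT), 5 (XiΔXist), 30 (shSCR) and 70 (shYY1), which is 20.4 CPM in shSCR and 47.6 CPM in shYY1, a ratio of 2.33 (1.5 to 3.7). Ndufv3, an accessory subunit of the NADH-binding module, had 47, 33, 32 and 73 reads in the same order of pools, and its ratio of shYY1 to shSCR was 2.28 (1.49 to 3.57). Ndufa6, an accessory subunit that docks the acyl carrier protein, had 3004, 3844, 20 and 38 reads and a ratio of 1.90 (1.08 to 3.44). The shSCR and shYY1 counts of these genes were low, and for Ndufa6 the lower bound was close to 1.

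Ndufab1, the acyl carrier protein itself, just missed the 1.5-fold limit. It had 67.3 CPM in shSCR and 99.9 CPM in shYY1, a ratio of 1.48 (1.14 to 1.93). Ndufs1, the large iron-sulfur subunit, had 61.2 and 87.0 CPM, a ratio of 1.42 (1.08 to 1.88). Ndufa5, an accessory subunit of the peripheral arm, had 1369 reads (WT), 1084 (XiΔXist), 46 (shSCR) and 18 (shYY1) and was lower in shYY1 (0.391, 0.213 to 0.687). Ndufb5 and Ndufb6, accessory subunits of the membrane arm, had ratios of 0.571 (0.331 to 0.965) and 0.534 (0.307 to 0.907), on 42 and 24 reads and on 43 and 23 reads in shSCR and shYY1. Ndufv1, which holds the FMN that first takes electrons from NADH, had 155 reads in shSCR and 110 in shYY1 and a ratio of 0.709 (0.550 to 0.911), short of the 1.5-fold limit. Ndufv1 and Ndufv3 belong to the same module, and their ratios lay on opposite sides of 1.

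In succinate dehydrogenase 1 of 4 subunits was called. Sdhc, a membrane anchor, had 117 CPM (WT), 146 CPM (XiΔXist), 103 CPM (shSCR) and 65.2 CPM (shYY1), a ratio of 0.631 (0.484 to 0.820). Sdha, the flavoprotein that oxidizes succinate, was at 142 and 143 CPM in shSCR and shYY1, a ratio of 1.00 (0.825 to 1.22). Sdhb, the iron-sulfur subunit, and Sdhd, the other membrane anchor, had ratios of 1.40 (0.939 to 2.1) and 1.24 (0.934 to 1.66), both with intervals that included 1.

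In complex III, Uqcrb, a small subunit at the ubiquinone site, had 170 CPM (WT), 222 CPM (XiΔXist), 80.9 CPM (shSCR) and 124 CPM (shYY1), a ratio of shYY1 to shSCR of 1.54 (1.21 to 1.95). Uqcrfs1, the Rieske iron-sulfur protein, was at 52.4 and 40.8 CPM in shSCR and shYY1, with an interval of the ratio from 0.546 to 1.11. The core proteins Uqcrc1 and Uqcrc2 had ratios of 1.17 and 1.06, and their intervals included 1. In complex IV, Cox5a, a matrix-side subunit, had 27.2 CPM in shSCR and 44.2 CPM in shYY1 (1.62, 1.08 to 2.47), and Cox7c, a small membrane-spanning subunit, had 25 and 56 reads (2.24, 1.37 to 3.74). Cox4i1 and Cox8a, which had the most reads of complex IV in this pair, had log2 ratios of 0.05 (-0.21 to 0.32) and -0.22 (-0.46 to 0.02).

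For the ATP synthase, Atp5mpl, a small proteolipid of the membrane sector, had 1467 reads (WT), 1759 (XiΔXist), 39 (shSCR) and 81 (shYY1), a ratio of shYY1 to shSCR of 2.08 (1.40 to 3.12). The other differences were smaller than 1.5-fold, with Atp5c1, the γ subunit of the rotor, at a ratio of 1.33 (1.06 to 1.68) and Atp5f1 at 1.32 (1.12 to 1.56). The catalytic subunits had ratios below 1, since Atp5b had 466 reads in shSCR and 341 in shYY1 (0.731, 0.634 to 0.843) and Atp5a1, the α subunit, had 280 and 230 (0.821, 0.686 to 0.981). Of the assembly factors only Ndufaf4 reached 50 reads in the pair, with 91 and 119 reads (1.31, 0.986 to 1.74).

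The reads of each allele gave a partial internal view of these differences, although both alleles come from the same pools and are not replicates. For Cox7c the 129 reads were 13 in shSCR and 29 in shYY1 and the CAST reads 12 and 27, and for Atp5mpl they were 10 and 29 and 29 and 52. The counting interval of the ratio excluded 1 on each allele of these 2 genes. For Ndufa5 it excluded 1 for the CAST reads alone (30 and 8), and for Ndufb5, Uqcrb and Cox5a for the 129 reads alone. Ndufa6, Ndufb6, Ndufs8 and Ndufv3 had no CAST read in either pool and Sdhc had 2 in shSCR, so these genes offered no such comparison. Uqcrb, Cox5a, Cox7c, Ndufb5 and Ndufb6 overlap another annotated gene, and the use of strand in counting was not stated, so reads of these genes may in part come from the partner.

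Of the 7 members whose promoter held AAGATGGCG, 3 had 50 reads in the pair, namely Ndufc1, Atp5j and Atp5j2. Their ratios of shYY1 to shSCR were 1.42 (0.893 to 2.29), 1.09 (0.821 to 1.45) and 1.35 (0.905 to 2.02), so none of the 3 was separated from 1 by its counting error. Of those under the minimum, Ndufs4 (20 and 9 reads in shSCR and shYY1) and Ndufs7 (29 and 16) had ratios below 1. These were 0.450 (0.180 to 1.03) and 0.551 (0.280 to 1.05). With the looser motif, 9 members gave a median log2 ratio of 0.23, and the 34 other members with a window and enough reads gave 0.20. Members with the NRF1 letters had a median of 0.38 (5 genes) against 0.16 without (38 genes), and members with the GABPA letters had 0.13 (7 genes) against 0.21 (36 genes). These groups are small and overlap, and AAGATGGCG was in the window of none of the called members that had a window, higher (Ndufs8, Ndufv3, Ndufa6, Cox5a and Cox7c) or lower (Ndufa5, Ndufb5 and Ndufb6). The looser form was in the window of 1 higher member, Ndufs8, and 1 lower member, Ndufb5.

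Lists of related genes had medians below 0 in this pair. Of 47 listed assembly and cofactor genes outside the symbol rule, 24 had enough reads, 2 were at least 1.5-fold higher in shYY1, 1 was lower, and the median log2 ratio was -0.02. The higher genes were Cox15, which makes heme A for complex IV (60.5 and 101 CPM in shSCR and shYY1), and Etfa, an electron transfer flavoprotein (15.6 and 25.8 CPM), and the lower was Dhodh, which feeds electrons from pyrimidine synthesis into the chain (58 and 25 reads). Among 15 TCA cycle genes with enough reads 1 was higher, Suclg1 (26.5 and 44.2 CPM), none was lower and the median was -0.11. Among 12 such genes of glycolysis none was higher, Gapdh was lower (53.0 and 33.3 CPM) and the median was -0.17. Of 16 listed transcription factors and coactivators of mitochondrial genes 10 had enough reads, the median was -0.09, Yy1 was lower and Esrra was higher (20.4 and 34.0 CPM). Tfam, which packages mitochondrial DNA and acts in its transcription, had 111 and 158 CPM, a log2 ratio of 0.51 (0.22 to 0.81), short of the 1.5-fold limit.

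The partners of the members that are encoded by mitochondrial DNA were looked at after the values of the members were known. Of 13 such genes, 6 were at 0 in all pools and 7 had reads, nearly all on the 129 allele. Their summed level was 81774 CPM (WT), 83388 CPM (XiΔXist), 19207 CPM (shSCR) and 24659 CPM (shYY1). The ratio of shYY1 to shSCR was 1.28 (1.26 to 1.30), and all 7 genes were above 1, from 1.15 for mt-Co1 of complex IV to 1.56 for mt-Nd6 of complex I. With all allelic reads as the library total the summed ratio was 1.23. The mitochondrial rRNAs had a ratio of 1.12 in the same pair, and mitochondrial reads of all kinds made up 36.7% of allelic reads in shSCR and 39.5% in shYY1.

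The XiΔXist and WT pools were compared for differences in these autosomal genes. They come from clonal lines with 1 pool each, so loss of Xist cannot be told apart from other differences between the lines. Of the 62 members with at least 50 reads in this pair, 2 were at least 1.5-fold higher in XiΔXist (3.23%, against 7.73% of 8567 genes), Cox7c and Atp5c1, and 3 were at least 1.5-fold lower (4.84%, against 12.6%), Ndufa3, Ndufb5 and Uqcrc1. The calls use CPM + 1, while the ratios printed with intervals are those of CPM without the added 1, which lie farther from 1 for genes with few reads. The median log2 ratio was -0.06, against -0.08 over all genes tested. With median-of-ratios size factors, which shift all genes, the background was 10.5% higher and 9.68% lower, 2 members were called in each direction, and the median of the members was 0.07 beside 0.05 for all genes. With 62 members at greater depth, 11 had a counting interval above 1 and 25 had 1 below it, where 25.9% and 37.2% of all genes tested did.

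**Figure D3:**
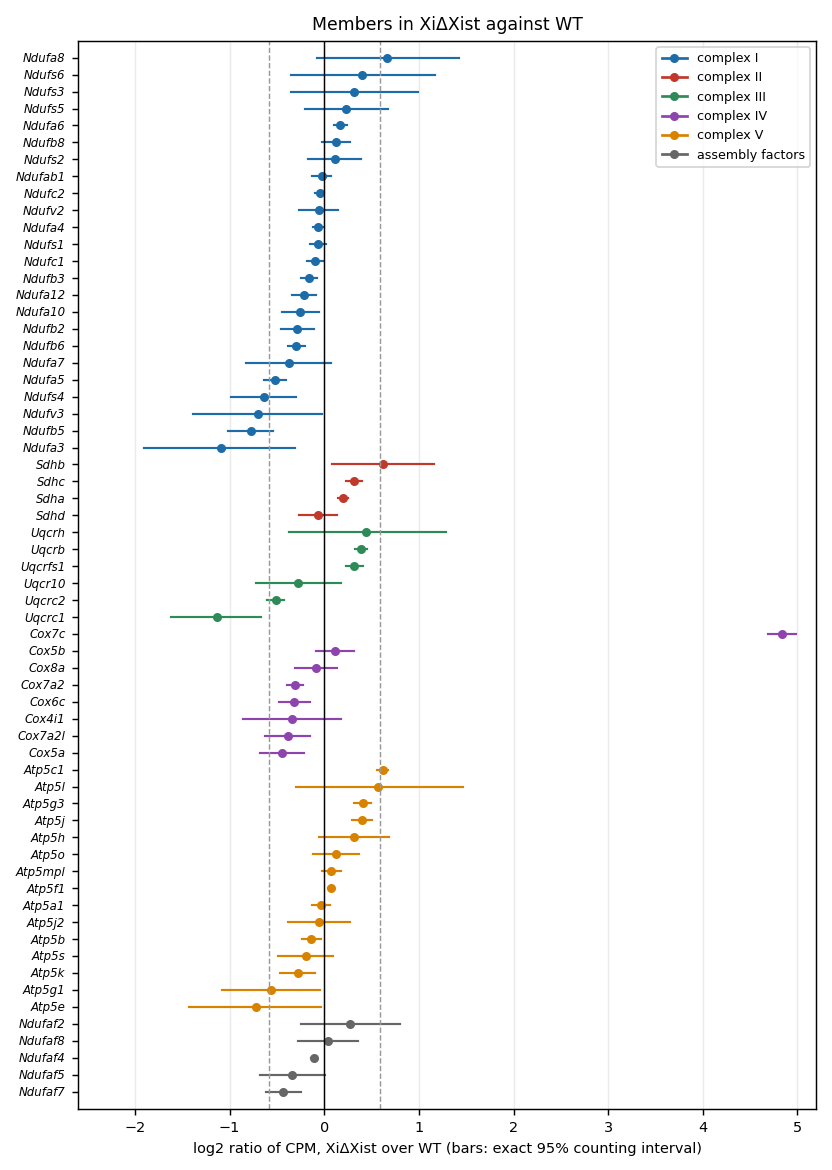
Log2 ratio of CPM in XiΔXist over WT for the 62 members with at least 50 reads in the pair, by complex, with exact 95% counting intervals as bars and dashed lines at 1.5-fold. Most members lie between the dashed lines, and Cox7c stands alone at the right with a ratio of 28.5.

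The lists of related genes had medians between -0.07 and 0.05 in this pair, with 1 of 36 assembly and cofactor genes higher (Atpaf1) and 4 lower (Sdhaf1, Pet100, Dhodh and Etfa), 1 of 10 regulators lower (Pprc1), none of 14 TCA cycle genes called, and 1 of 11 glycolysis genes higher (Pfkl).

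By complex, the medians were -0.08 for complex I (24 genes), 0.25 for complex II (4), 0.02 for complex III (6), -0.28 for complex IV (8) and 0.07 for complex V (15). Uqcrc1, a core protein of complex III, had 114 reads in WT and 59 in XiΔXist, a ratio of 0.455 (0.326 to 0.628). Uqcrc2, the other core protein, had 125 and 87.5 CPM (0.701, 0.659 to 0.745), whereas Uqcrb and Uqcrfs1 lay above 0 on the log2 scale of CPM + 1, at 0.38 and 0.31, with intervals of the log2 ratio from 0.32 to 0.45 and from 0.23 to 0.41. Ndufb5 had 19.7 CPM in WT and 11.5 CPM in XiΔXist, a ratio of 0.583 (0.494 to 0.687), and this difference was seen on both alleles (205 and 139 reads of 129, 164 and 106 of CAST).

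In complex V, Atp5c1 had 3938 reads in WT and 6886 in XiΔXist, a ratio of 1.54 (1.48 to 1.6), with 1.69 for its 129 reads and 1.45 for its CAST reads. Atp5c1 passed the 1.5-fold rule by a small margin and fell short of it when all allelic reads served as the library total. Atp5g3, which encodes subunit c of the rotor ring, and Atp5j, coupling factor 6, had ratios of 1.33 (1.24 to 1.41) and 1.32 (1.22 to 1.42). All 3 subunits of succinate dehydrogenase other than Sdhd had ratios above 1, from 1.15 for Sdha (1.1 to 1.19) to 1.53 for Sdhb (1.06 to 2.24, on 47 and 82 reads, and 1.38 on the CPM + 1 scale, under the 1.5-fold limit).

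Cox7c, on chromosome 13 (GRCm38, chr13:86044816-86046904), stood apart from every other member. It had 387 reads of 129 and 2 of CAST in WT, and 1464 of 129 and 11164 of CAST in XiΔXist, so its level was 20.8 CPM in WT and 592 CPM in XiΔXist (28.5-fold, 25.8 to 31.6). Relative to all autosomal 129 reads, its 129 reads were 3.34 times higher (2.99 to 3.75) in XiΔXist. The 129 share was 99.5% (98.1 to 99.9) in WT and 11.6% in XiΔXist. In shSCR and shYY1, which were made from XiΔXist MEFs, Cox7c had 25 and 56 reads with 129 shares of 52.0% (33.5 to 70.0) and 51.8% (39.0 to 64.3), so the low share of the XiΔXist pool was not found there. Chromosome 13 as a whole also differed in share between these pools. Its genes read from both alleles had a median of 52.1% in XiΔXist, 69.3% in shSCR and 70.9% in shYY1. Levels are not compared across these pairs of libraries.

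Genes near Cox7c were then examined, a region chosen after its values were seen. Ccnh and Rasa1, whose middles lie at -839 and -794 kb from that of Cox7c, each had 2 CAST reads in WT and 10068 and 9135 in XiΔXist, and their levels were 4.68-fold and 7.13-fold higher on the CPM + 1 scale. The nearest genes with enough reads beyond them, Tmem161b on the one side and Edil3 on the other, were read from both alleles in WT (129 shares of 44.4% and 35.8%) and had levels 0.959-fold and 1.42-fold those of WT. Among the other genes of the region, Mef2c had 182 reads in WT and 9 in XiΔXist. Vcan had 18528 CAST reads in WT and 8683 in XiΔXist, 0.412-fold when scaled to all autosomal allelic reads. The cause of the missing CAST reads in WT and of their number in XiΔXist was not tested.

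**Figure D4:**
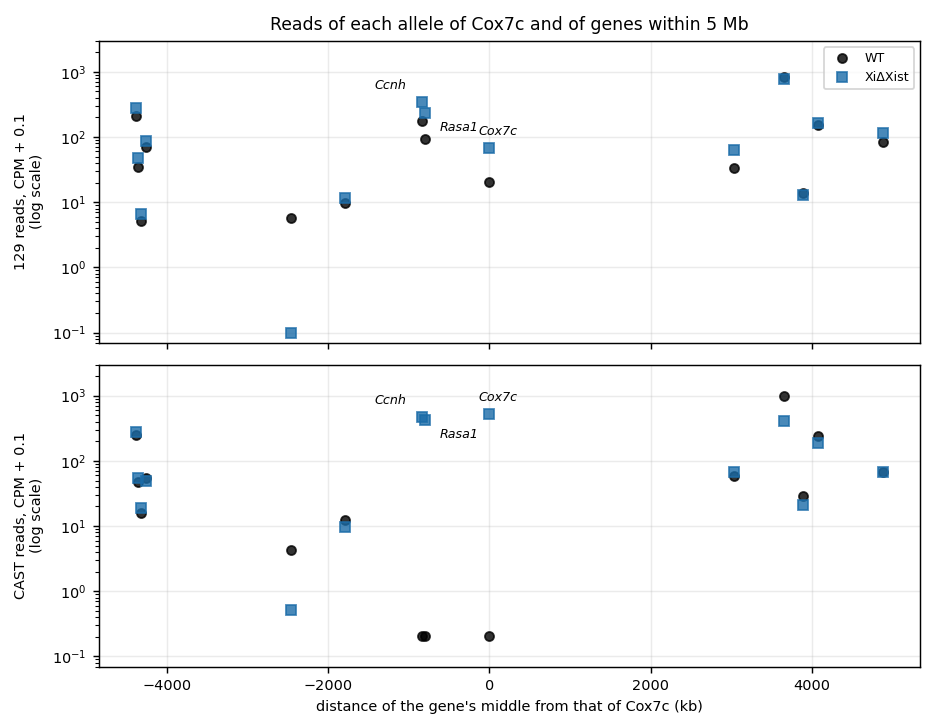
Reads of the 129 allele (top) and of the CAST allele (bottom) of Cox7c and of 13 genes within 5 Mb, as CPM plus 0.1 on a log axis, against distance from Cox7c in kb, in WT (circles) and XiΔXist (squares). Ccnh, Rasa1 and Cox7c had 2 CAST reads each in WT and at least 9135 in XiΔXist, while the other genes had CAST reads in both pools.

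The sum of complex IV rested on Cox7c. Complex IV summed to 257 CPM in WT and 788 CPM in XiΔXist, a ratio of 3.06 (2.97 to 3.16), of which Cox7c made up 75.1% of the reads in XiΔXist. Without Cox7c the sums were 236 and 196 CPM, a ratio of 0.829 (0.794 to 0.865). The ratio of all members was 1.14 (1.13 to 1.15) with Cox7c and 1.02 (1.01 to 1.03) without it.

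Many members were read almost only from the 129 allele. The 129 share of autosomal allelic reads was 73.1% to 73.6% in the 4 pools. Among members with at least 50 reads, the share was over 90% for 28 of 53 in WT, 27 of 54 in XiΔXist, 22 of 34 in shSCR and 26 of 42 in shYY1, and it was under 10% for none in any pool. Of all autosomal protein-coding genes with as many reads, 41.9% to 42.5% were over 90% in each pool. Of the 28 members with 50 reads in all 4 pools, 18 were over 90% in each pool, 9 were between 10% and 90% in each pool, and Ndufa12 crossed the limit.

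**Figure D5:**
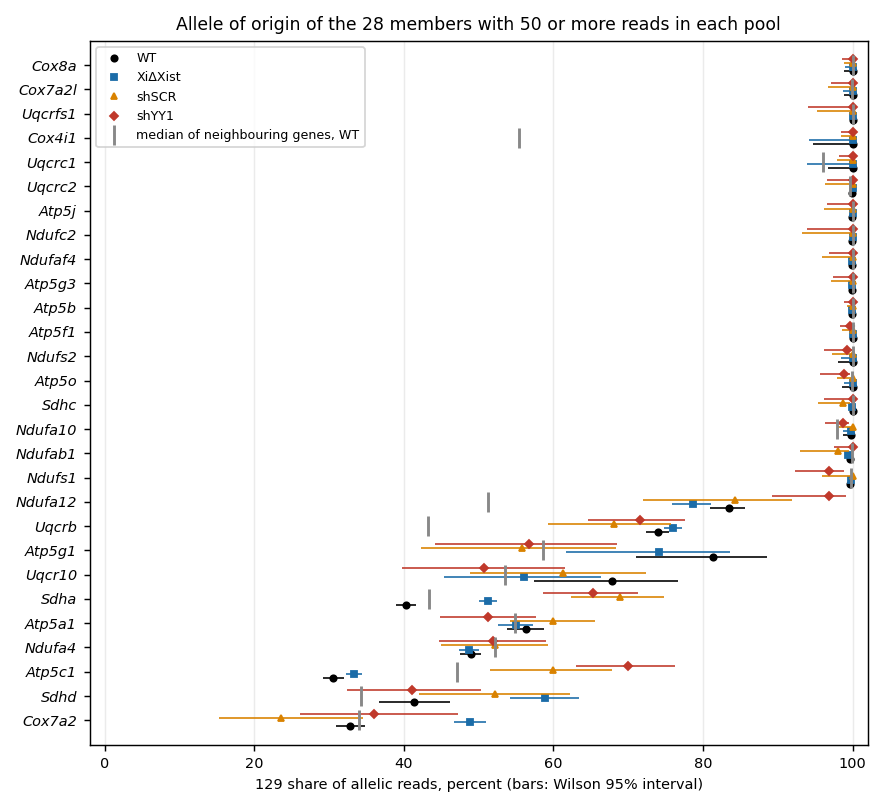
Share of allelic reads on the 129 allele for the 28 members with at least 50 reads in each pool, with Wilson 95% intervals, and the median share of genes within 5 Mb in WT as a grey tick. The upper 18 members sit over 90% in all pools, and the grey tick is beside most of them, with Cox4i1 as an exception whose neighbours have a median of 55.4%.

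Members with a share over 90% mostly lay among genes that were alike. In WT, 25 of the 28 such members had neighbours within 5 Mb whose median share was also over 90%, as did 26 of 27 in XiΔXist, 21 of 22 in shSCR and 24 of 26 in shYY1. A member differed from the median of its neighbours by more than 20 points in 5 of 53 cases in WT, namely Ndufa12, Uqcrb, Cox4i1, Cox7c and Atp5g1, where 10.2% of all genes did so. Cox4i1, which encodes the widely expressed form of subunit 4, had only 129 reads in every pool (69, 62, 234 and 243), although the median of its neighbours was 55.4% in WT and 73.4% in shYY1. Ndufa12 was at 83.4% in WT among neighbours at 51.3%, and Uqcrb was at 73.9% among neighbours at 43.3%. Chromosomes differed widely, with 57 of 515 genes read from both alleles in XiΔXist and WT on chromosome 1 and 520 of 553 on chromosome 11. Why whole stretches had few CAST reads was not tested, so a share over 90% is not read here as expression from 1 allele.

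The 129 share differed by at least 10 points between shYY1 and shSCR for 5 of 33 members with 50 reads in each pool (15.2%), where 13.4% of 5280 genes did so. It was higher in shYY1 for Ndufa12 (84.3% and 96.8% in shSCR and shYY1), Cox7a2 (23.6% and 36.0%) and Atp5c1 (60.0% and 70.0%), and lower for Sdhd (52.2% and 41.1%) and Uqcr10 (61.3% and 50.6%). The Wilson intervals of the 2 pools overlapped for each of these genes, and none of the differences reached 20 points. The median difference of their chromosomes lay between 0 and 0.529 points. Genes read only from 129 have little room to differ. An alternative added after seeing the data kept genes read from both alleles in both pools and subtracted their chromosome's median. It gave 4 of 11 members, where 24.1% of all such genes differed.

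Between XiΔXist and WT the share differed by at least 10 points for 9 of 53 members, where 17% of 7204 genes did so. Beside Cox7c these were Sdhd, Cox7a2, Cox5a, Ndufaf2 and Sdha, which were higher in XiΔXist, and Uqcr10, Atp5k and Ndufaf8, which were lower. Cox5a (45.6% in WT and 60.9% in XiΔXist), Cox7a2 (32.8% and 48.8%) and Sdhd (41.3% and 58.9%) all lie on chromosome 9, where genes read from both alleles differed by a median of 14.5 points in the same direction. Atp5k differed by -10.6 points on chromosome 5, where such genes differed by a median of -12.8 points. The share of Sdha, on chromosome 13, was 40.3% in WT and 51.2% in XiΔXist, with neighbours at 43.4% and 51.3%. Among the 25 members with a share between 10% and 90% in both pools, 1 differed by at least 10 points from the median of such genes on its chromosome (12.3% of all such genes did), namely Ndufs4, whose share was 60.9% in WT and 56.7% in XiΔXist, with overlapping Wilson intervals, where the median difference was 7.29 points. Cox7c was not among these 25, since its share in WT was over 90%.

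Several subunits of complex IV exist as paralogs used in different tissues. For the pairs that could be ranked, the widely expressed form had more reads in each pool. Reads also depend on how many strain differences each transcript carries, so few or no reads do not show that a form is unexpressed. Cox4i1 had 62 to 243 reads a pool and Cox4i2 at most 1, Cox7a2 had 72 to 2348 and the heart and muscle form Cox7a1 at most 5, and Cox8a had 268 to 355 and the muscle form Cox8b at most 3. Cox6a1 had 8 to 20 reads and Cox6a2 none, for which 3 reads would correspond to 0.207 to 3.00 CPM per kb over the 4 pools. Cox6b1 and Cox6b2 had at most 3 reads each and could not be ranked. Ndufa4 had 184 to 5192 reads and Ndufa4l2 at most 3. Genes were assigned to complexes by symbol, so Ndufa4, whose protein is now placed in complex IV, is counted under complex I throughout. It made up 10.6% of the reads of complex I in shSCR.

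The c subunit of the ATP synthase is made from 3 genes that encode the same mature protein. Per kb of exon, Atp5g3 had the highest level in each pool (39.0, 51.7, 39.9 and 44.9 CPM per kb in WT, XiΔXist, shSCR and shYY1), and Atp5g1 was at 0.815, 0.553, 7.2 and 8.30 CPM per kb. Atp5g2 had 7 to 26 reads. The order of the 3 also depends on how many strain differences each transcript carries.

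The 17 genes that matched the symbols but stayed under 10 reads in each pool cannot be called unexpressed. Cyc1, which encodes cytochrome c1 of complex III, Ndufb4, Ndufaf1, Cox6a2 and Cox8c had no read in any pool, and the other 12 had at most 8 reads in any pool. Ndufb9 had 8 reads in shYY1 and none elsewhere, and Uqcr11 and Uqcrq had at most 5. The X-linked genes of the same symbols were read from the CAST allele: Ndufb11 had 342, 354, 56 and 33 CAST reads and 2, 0, 0 and 1 of 129 in WT, XiΔXist, shSCR and shYY1, Cox7b had 83, 75, 3 and 6 CAST reads and none of 129, and Ndufa1 had none.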

How the data were processed

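Allele-specific RNA-seq of 8 samples in 4 groups of MEFs was analysed from 8 files, each with 1 column of counts. The authors pooled the 2 samples of a group, aligned the reads with TopHat, split them by strain with SNPsplit on GRCm38 and deposited raw counts per gene for each allele. The submitters' processing notes name featureCounts 1.6.3, and which gene annotation and strand setting served for counting is not given in the sources used here. Gene IDs were matched to the GENCODE vM21 annotation of GRCm38 for names and positions (45229 of 46078), and the 849 others held 0.0709% to 0.0925% of reads. Both alleles were summed and divided by the autosomal allelic reads.

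A member was called at a ratio of at least 1.5-fold in CPM + 1, at 50 or more reads over the pair of pools, and a 129 share was compared with at least 50 reads in each pool. Ratios carry exact conditional intervals and shares Wilson intervals at 95%, which cover counting error only, since reads are not known to be independent molecules. With 1 pool a group no test between groups was possible. Python 3.11.15, numpy 2.4.6, pandas 2.3.3, scipy 1.17.1, matplotlib 3.10.9 and blastn 2.17.0 were used, and the calling step was tested on simulated data. The simulation changed only genes with at least 200 reads in the pair, by 2-fold or 4-fold. It did not cover calls nearer to 50 reads or to 1.5-fold. The genes named were Yy1, the paralogs, the 3 members of each complex with the most reads, the 5 largest log2 ratios in each direction at 100 or more reads, the 5 largest changes of share, members with shares over 90% or under 10% (given as counts), 2 genes a direction from each pathway list, and X-linked genes of the same symbols. Members and lists were chosen with earlier results of these data known. The alternatives were other library totals, pseudocounts, read minimums, folds, single alleles and gene subsets.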

Additional observations from a re-analysis of the deposited data

Results flagged for a closer look

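The mitochondrially encoded subunits lie outside the autosomal counts that the comparisons of the members used. Their summed reads gave a ratio of shYY1 to shSCR of 1.28 (1.26 to 1.30), above the level in the control pool with the scrambled hairpin. No replicate was available, and the cause was not tested.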

How the results depend on the processing

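No paired analysis was possible because the samples of a group were pooled before alignment, and leaving out a replicate was likewise not run. Of 135 alternatives run, 81 left a value within its limits. The alternatives that leave out Cox7c or the member with the most reads were among those chosen after seeing the data. The median log2 ratio of the members in shYY1 over shSCR was above 0 in every alternative run.

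For shYY1 against shSCR, the members higher and lower numbered 11 and 11 of 74 with no read minimum (all genes 12.7% and 12.2%), 1 and 1 of 25 with a minimum of 200 reads (2.46% and 2.60%), 4 and 2 of 26 that overlap no other gene (6.56% and 6.79%), 19 and 8 of 52 at the lower fold tried (17.8% and 18.8%), and 4 and 1 of 52 at a fold of 2 (1.5% and 1.02%). CAST reads alone gave 3 higher and 0 lower of 14 (8.57% and 8.70%), and 129 reads alone gave 2 lower of 44 (7.85%). A changed share was found for 0 of 33 members at 20 points (2.23%), 16 of 63 with at least 10 reads (21.6%) and 1 of 19 with at least 100 reads (8.56%). The ratio of summed reads was 1.16 for complex IV without Cox8a, 1.1 for complex V without Atp5b, and 1.02 for all members with all allelic reads as the total.

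For XiΔXist against WT, the members higher numbered 1 of 62 with all allelic reads as the total (all genes 6.91%), 4 of 62 with a pseudocount of 0.1 CPM (8.78%), 0 of 33 without overlaps (7.73%), 1 of 61 without Cox7c (7.73%), 7 of 62 at the lower fold (16.0%) and 1 of 62 at a fold of 2 (3.65%). Those lower numbered 1 of 46 with a minimum of 200 reads (11.2%), 6 of 62 with the pseudocount of 0.1 CPM (15.1%), 1 of 33 without overlaps (12.6%), 12 of 62 at the lower fold (25.6%) and 0 of 62 at a fold of 2 (6.26%). The median log2 ratio turned to 0.072 with median-of-ratios size factors. A changed share was found for 1 of 53 members at 20 points (3.16%) and 5 of 29 without overlaps (17%). It was found for 3 of 53 (8.97%) after subtracting the median over all genes of the chromosome, which includes genes read only from 129 and so can add a difference to a member such as Atp5j2 whose own share differed by 1.2 points. An alternative added after seeing the data, with members and medians limited to genes read from both alleles, gave 1 of 25 (12.3%). With all allelic reads as the total, summed ratios were 0.917 for complex I, 1.11 for complex V, 0.901 for assembly factors and 1.11 for all members. With median-of-ratios size factors they were 1.03 for complex I and 1.01 for assembly factors, both turned in direction, and 1.28, 1.19, 3.37, 1.26 and 1.252 for complexes II, III, IV and V and all members. Without the member with the most reads they were 1.2 for complex II, 0.913 for complex III (without Uqcrb, turned in direction), 0.829 for complex IV (without Cox7c, turned in direction), 1.22 for complex V, 0.835 for assembly factors and 1.18 for all members, and 1.02 for all members without Cox7c. The causes were not tested, beyond the gene left out or the total used.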
